A study of Capra hircus with 3 samples.

Results

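The longest tags of the goat skin small RNA libraries were those of 37 to 44 nt, chosen by their length alone. They made up 3127 of 1308819 distinct tags in anagen, 7950 of 1324013 in catagen and 1234 of 2083543 in telogen, and 11567 of the 4043974 distinct tags of the 3 libraries together. A tag is 1 distinct sequence, and its count is the number of clean reads that carried it. The libraries were made from skin of adult Shanbei White cashmere goats, with the RNA of 10 goats pooled for each, and there was 1 library for anagen, 1 for catagen and 1 for telogen. The stage and the library therefore cannot be told apart, no p-value is given, and every interval is a 95% interval of counting error only, since reads made by PCR are not independent molecules. Depth was 15997828, 18111912 and 27016012 clean reads, in the order anagen, catagen and telogen, which is kept below. RNA of 18 to 30 nt was cut from a gel before the adapters were joined, so all of these tags lay above the range selected.

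Anagen, catagen and telogen are the growth, regression and rest phases of the hair follicle, and the cashmere goat passes through them with the seasons. Small RNA libraries of skin hold microRNAs (miRNAs), short regulatory RNAs cut from hairpins, beside pieces of longer RNAs such as transfer RNA (tRNA), ribosomal RNA and messenger RNA. A mature tRNA carries the letters CCA at its 3′ end, which an enzyme adds after transcription. Ahead of them lies a T loop, marked by the letters GTTC when read as DNA. An adenosine of that loop is commonly methylated on the face that pairs, and such a base is known to stop a reverse transcriptase or to be read as another letter.

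The 100 groups of long tags that shared their first 18 bases and had most reads were compared between the libraries. The leading tags, those with most reads, of 8 of the 10 largest groups show what was sequenced. Capitals mark the bases that the tag shared, from its first base on, with the most-read tag of 18 to 36 nt that had the same start.
Largest group: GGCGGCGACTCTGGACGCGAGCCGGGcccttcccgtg
Rank 2: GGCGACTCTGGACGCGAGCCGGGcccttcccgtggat
Rank 5: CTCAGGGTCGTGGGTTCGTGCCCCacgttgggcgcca
Rank 6: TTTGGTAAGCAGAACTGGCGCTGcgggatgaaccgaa
Rank 7: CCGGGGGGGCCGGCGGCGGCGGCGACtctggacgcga
Rank 8: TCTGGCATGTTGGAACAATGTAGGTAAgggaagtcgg
Rank 9: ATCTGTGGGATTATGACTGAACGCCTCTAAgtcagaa
Rank 10: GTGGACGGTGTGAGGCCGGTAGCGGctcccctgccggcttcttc
The leading tags of 8 of the 100 groups, rank 5 among them, are printed for their 3′ ends. Each ended in CCA and held the 4 letters GTTC at the 24th to 21st base from that end. Capitals mark the 9 letters that begin with GTTC and the final CCA.
CCA tag 1, rank 5: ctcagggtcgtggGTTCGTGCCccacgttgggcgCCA
CCA tag 2: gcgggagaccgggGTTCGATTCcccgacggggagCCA
CCA tag 3: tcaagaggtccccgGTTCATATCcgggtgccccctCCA
CCA tag 4: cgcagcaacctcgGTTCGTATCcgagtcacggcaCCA
CCA tag 5: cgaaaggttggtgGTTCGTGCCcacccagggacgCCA
CCA tag 6: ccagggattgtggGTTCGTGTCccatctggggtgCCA
CCA tag 7: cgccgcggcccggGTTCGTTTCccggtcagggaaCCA
CCA tag 8: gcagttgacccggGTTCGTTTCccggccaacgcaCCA
Another kind of end was the 6 letters CTGAAC, which catagen tags of very different starts shared. The most-read catagen tag with this end is shown at 4 of the lengths, with the 6 letters in capitals.
Catagen, 39 nt: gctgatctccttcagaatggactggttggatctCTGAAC
Catagen, 41 nt: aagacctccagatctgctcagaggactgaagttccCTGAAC
Catagen, 42 nt: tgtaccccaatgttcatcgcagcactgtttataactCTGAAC
Catagen, 44 nt: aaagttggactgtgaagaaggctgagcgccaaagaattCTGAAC
The last set is of tags of 41 nt or more that began as a shorter tag and then went on with other letters. Capitals again mark the bases shared with the most-read shorter tag of the same start.
Telogen, 41 nt: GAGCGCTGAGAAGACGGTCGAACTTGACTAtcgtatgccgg
Telogen, 43 nt: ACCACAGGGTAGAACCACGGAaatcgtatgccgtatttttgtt
let-7b group, 42 nt: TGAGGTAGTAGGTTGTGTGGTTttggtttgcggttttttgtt
Anagen, 44 nt: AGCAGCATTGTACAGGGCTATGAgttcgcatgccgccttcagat
No goat genome or transcript set was used, so no group is called by the name of a long RNA here.

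Long tags were most abundant in catagen and least abundant in telogen. They held 4623 anagen, 11864 catagen and 1453 telogen reads. In reads per 1000000 clean reads (RPM) this was 289.0, 655.0 and 53.78. As shares of clean reads these were 0.0289% (0.0281 to 0.0297) in anagen, 0.0655% (0.0643 to 0.0667) in catagen and 0.00538% (0.00511 to 0.00566) in telogen, and no interval overlapped another. Catagen was thus 12.2 times telogen (11.5 to 12.9), anagen was 5.37 times telogen (5.06 to 5.70), and anagen was 0.441 times catagen (0.426 to 0.456). In skin, fewer cells of a type and less RNA per cell cannot be told apart.

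The neighbouring lengths led up to this order. Tags of 31 to 36 nt, most of them of 31 to 33 nt, were together highest in anagen, at 5.80%, 4.50% and 2.40% of clean reads, so that anagen was 1.29 times catagen. Within them catagen over telogen rose from 3.17 at 33 nt through 5.40 at 34 nt and 9.99 at 35 nt to 16.5 at 36 nt (15.4 to 17.6). Anagen over catagen fell from 1.48 at 33 nt to 0.874 at 36 nt (0.849 to 0.899), so the order of the long tags was already present at 36 nt. At 18 to 30 nt the 3 ratios between libraries lay between 0.965 and 0.987. Because the pattern changed at about 41 nt, the tags were also described as 2 classes, 37 to 40 nt and 41 to 44 nt, a division chosen after the lengths had been seen. At 37 to 40 nt there were 3683, 10584 and 710 reads, and catagen was 22.2 times telogen (20.61 to 24.02). At 41 to 44 nt there were 940, 1280 and 743 reads, and the same ratio was 2.57 (2.35 to 2.82).

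The length profiles had different shapes. In catagen the reads fell at every step, from 5303 at 37 nt through 2787 at 38 nt, 1578 at 39 nt, 916 at 40 nt, 584 at 41 nt, 402 at 42 nt and 207 at 43 nt to 87 at 44 nt. In anagen they fell from 2518 at 37 nt to 124 at 40 nt, rose to 386 at 42 nt, and were 147 at 43 nt and 217 at 44 nt. Telogen fell from 370 at 37 nt to 50 at 40 nt, then rose to 354 at 42 nt, with 51 at 43 nt and 159 at 44 nt. Anagen and telogen thus shared a second maximum at 42 nt that catagen lacked. Anagen was 0.338 times catagen at 38 nt (0.312 to 0.365), did not differ from it beyond counting error at 42 nt (1.09, 0.943 to 1.25), and was 2.82 times catagen at 44 nt (2.19 to 3.66). Catagen over telogen went from 27.3 at 40 nt (20.6 to 37.1) to 0.816 at 44 nt, where the interval of 0.621 to 1.07 covered equality.

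Most long tags were read once. Reads per distinct tag were 1.48, 1.49 and 1.18, against 6.24, 5.88 and 5.87 at 31 to 36 nt. Tags with 1 read made up 88.7%, 88.9% and 92.4% of the long tags, and 82.2%, 82.6% and 82.8% of those of 31 to 36 nt. The tag with most reads in each library had 79, 147 and 17 reads. Few sequences recurred between libraries. Of the 11567 long tags, 116 (1.00%) were found in all 3 libraries and held 16.5% of the long reads, whereas the tags of 31 to 36 nt found in all 3 held 81.3% of their reads. At 41 to 44 nt none of the 2809 distinct tags was found in all 3 libraries, and 12 were found in a pair of them.

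Over reads, long tags were richer in G and C than the short ones. The G and C content was 55.96%, 53.7% and 56.5%, above the 46.4%, 46.8% and 49.1% of the tags of 18 to 30 nt and close to the 52.5%, 53.3% and 53.4% of those of 31 to 36 nt. Over distinct tags the contents were 53.95%, 50.75% and 55.3% at 37 to 44 nt and 51.1%, 51.9% and 51.5% at 18 to 30 nt, with catagen lower among the long tags. Catagen stood below the other libraries at the longest lengths. At 41 to 44 nt its G and C content was 48.9%, against 55.6% in anagen and 55.1% in telogen, and its share of A was 25.9%, against 14.8% and 15.6%. The first base also differed from that of short tags, in which T leads as in many miRNAs. T began 34.3%, 27.3% and 34.6% of long reads and 59.3%, 57.3% and 51.1% of reads of 18 to 30 nt. At 41 to 44 nt the last base was C in 83.7% of catagen reads, against 35.3% in anagen and 27.3% in telogen. The CTGAAC end described below closed 73.1% of these catagen reads and had 46.5% G and C, whereas those with none of the 3 ends described below had 55.7%, against 57.7% in anagen and 54.8% in telogen. The C box letters TGATGA of small nucleolar RNAs, searched in the first 12 bases, were found in 0.325%, 0.371% and 0.138% of long reads and in 0.196%, 0.148% and 0.224% of reads of 18 to 36 nt. A run of 8 or more of 1 base was present in 0.238%, 0.253% and 0.344% of long reads.

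Tags with the end of a mature tRNA were a small share of the long tags in all libraries. CCA ended 155, 615 and 69 long reads, which were 3.35% (2.87 to 3.91), 5.18% (4.80 to 5.60) and 4.75% (3.77 to 5.97). Catagen lay above anagen beyond counting error, and telogen overlapped both. Without the 10 largest groups the shares were 3.87%, 4.37% and 5.39%, with telogen highest. At 31 to 36 nt the shares were lower, 1.29%, 1.82% and 1.31%, and at 18 to 30 nt they were 2.87%, 4.86% and 4.27%. All but 1 of these reads in each library were of 37 to 40 nt, where CCA ended 4.18%, 5.80% and 9.58%. The T loop letters GTTCNANNC, with N any base, occurred anywhere in 1.28%, 1.25% and 1.38% of long reads and in 0.260%, 0.255% and 0.373% of reads of 18 to 36 nt.

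The T loop letters could be read in 122 anagen, 548 catagen and 64 telogen long reads that ended in CCA and held GTTC at the 24th to 21st base from the end. In these, the 6th letter counted from the G of GTTC was T in 46.7% (38.1 to 55.5), 50.2% (46.0 to 54.3) and 42.2% (30.9 to 54.4). It was A in 35.2%, 20.4% and 29.7%. Among reads of 24 to 30 nt chosen in the same way, T was read in 61.8%, 58.8% and 63.9% and A in 13.99%, 15.6% and 15.0%. At 31 to 36 nt T was read in 52.6%, 50.1% and 50.7% and A in 23.6%, 21.2% and 21.4%, close to the long reads in catagen. A single group, that of CCA tag 2, gave 27, 29 and 11 of the 43, 112 and 19 long reads with A. Without it A was read in 17.0% (10.8 to 25.9), 16.2% (13.3 to 19.7) and 15.4% (8.01 to 27.5) of long reads. T was then read in 59.6%, 52.3% and 50%. The group was left out because it gave most reads with A, and from the long reads only. The share of A thus had to fall, so these values cannot be set against those at 24 to 30 nt. G was read at this place in 14.8%, 27.4% and 28.1% of long reads. Of the 8 leading tags with CCA printed above, 7 had T at this place and 1 had A. This position was examined after the tags had been seen, and whether T stands for a methylated adenosine was not tested.

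The 6 letters CTGAAC were the commonest of the ends described in the long catagen tags. They closed 620, 3416 and 71 long reads, or 13.4% (12.5 to 14.4), 28.8% (28.0 to 29.6) and 4.89% (3.89 to 6.12). These were 38.8, 188.6 and 2.63 RPM. The share rose with length at every step in catagen, from 13.95% at 37 nt through 24.8%, 35.9%, 52.7%, 69.2%, 73.9% and 79.7% to 80.5% at 44 nt. In anagen it was highest at 39 nt, with 42.6%, and in telogen at 40 nt. Short tags carried it less often, with a rise that began below 37 nt. The end was found in 0.00976%, 0.0131% and 0.00996% of reads of 18 to 30 nt and in 0.0797%, 0.272% and 0.0493% of reads of 31 to 36 nt. At 36 nt alone it was found in 1.81%, 5.88% and 1.66%, the highest shares of the lengths from 31 to 36 nt. Inside the long tags, and not at their end, the same letters occurred in 118, 313 and 37 reads, or 2.55%, 2.64% and 2.55%. These are shares of all long reads, so reads closed by the letters lower them, most of all in catagen. They also rest in part on few sequences. The group of rank 9, whose leading tag printed above holds the letters, had 41, 69 and 7 long reads.

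The letters ahead of CTGAAC were shared as well. The 8 letters CTCTGAAC ended 350, 2262 and 43 long reads, and in catagen they ended 61.7% of the reads of 41 to 44 nt. These 8 letters are, as general knowledge of the kits of that time and not from the study's methods, the reverse complement of the start of a 5′ adapter. In catagen an end of at least 10 letters in common with that reverse complement closed 52.0% of the reads of 41 to 44 nt, and one of at least 12 letters 12.8%. Tags with the CTGAAC end were different from the others in 3 further measures. In catagen they had 1.04 reads per tag, against 1.78 for tags with none of the 3 ends described here. Their G and C content was 46.0%, against 56.3%. Their first 18 bases began a tag of 18 to 36 nt of the same library for 15.4% of reads (14.2 to 16.7), against 80.2% (79.3 to 81.1). The same contrast was present in anagen, with 13.9% against 82.8%, and in telogen, with 19.7% against 84.1%. The CTGAAC end was chosen after the ends of the tags had been seen.

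Anagen and telogen tags of 41 to 44 nt more often had an adapter-like end. The 3′ adapter used was not given in the sources used here, so the tags were compared with that of the Illumina small RNA kit, known from general knowledge. An end was called adapter-like when, beyond base 18, it matched the start of that adapter in at least 70% of 12 or more letters or 80% of 10 or 11 letters, a rule set after the tags had been seen. Such ends were present in 316, 43 and 357 long reads, or 6.83% (6.14 to 7.60), 0.362% (0.269 to 0.488) and 24.6% (22.4 to 26.9). In anagen and telogen nearly all were of 41 to 44 nt, and in catagen 25 of 43. At these lengths they made up 32.3% (29.4 to 35.4), 1.95% (1.33 to 2.87) and 47.8% (44.2 to 51.4). At 37 to 40 nt the shares were 0.326%, 0.170% and 0.282%, and at 31 to 36 nt they were 0.0216%, 0.0133% and 0.0203%. With a match of at least 60% in 12 or more letters also counted, 56.9%, 3.44% and 71.2% of reads of 41 to 44 nt were adapter-like.

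The 8 letters TCGTATGC, with which that adapter starts, were found without a mismatch in 11, 1 and 136 long reads. In telogen 111 of these were among the 179 reads of 41 nt, as in the telogen tag of 41 nt printed above. At 42 nt, the length of the second maximum, adapter-like ends made up 40.7% of anagen and 36.7% of telogen reads, against 3.48% of catagen reads. In anagen 49.4% and in telogen 33.3% of reads with this end began with the first 18 bases of at least 10000 reads of 18 to 36 nt in the same library. The shares were not far from these among reads of 41 to 44 nt with none of the 3 ends, at 41.2% and 31.9%, and no anagen or telogen read with the CTGAAC end had such a start. The authors' filtering record counted the reads discarded for want of a 3′ adapter, which were 0.343%, 0.0290% and 0.163% of high-quality reads, also lowest in catagen. Those discarded as 5′ adapter contaminants were 0.184%, 0.170% and 0.0578%, lowest in telogen. The part of adapter sequence in the number of long tags was not tested beyond these counts.

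The order of the libraries at 37 to 44 nt was the same without these ends. Leaving out tags with the CTGAAC or adapter-like end left 3687, 8405 and 1025 reads, or 230.5, 464.1 and 37.94 RPM. Catagen was then 12.2 times telogen (11.5 to 13.1), anagen 6.07 times telogen (5.67 to 6.52) and anagen 0.497 times catagen (0.478 to 0.516). At 41 to 44 nt leaving out these ends by the 70% rule turned a direction. There 464, 319 and 361 reads were left, and anagen was 1.65 times catagen (1.43 to 1.91), whereas with all tags it was 0.831 times catagen (0.763 to 0.905). This turn was found with the 70% rule only. By the 60% rule 535, 44 and 529 reads of 41 to 44 nt were adapter-like, against 304, 25 and 355 by the 70% rule. Many more anagen than catagen reads would thus be left out. CTGAAC closed 172 of the 940 anagen and 936 of the 1280 catagen reads of these lengths. If no read had both ends, anagen would stay below catagen by the 60% rule, as with all tags. Reads with both ends were not counted for that rule, so the turn holds for the 70% rule alone. Tags with none of the 3 ends held 76.4%, 65.7% and 65.8% of long reads.

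Grouping by the first 18 bases gave 8733 groups, of which 7487 had 1 read. The 100 groups with most reads held 5453 of the 17940 long reads (30.4%), with 21 to 374 reads each and a median of 36.5. The next group in order also had 21 reads. Catagen had the highest RPM in 71 groups, anagen in 29 and telogen in none. Telogen was at 0 reads in 19 groups, anagen in 4 and catagen in none, and a count of 0 allows up to 3 reads, which are 0.188, 0.166 and 0.111 RPM. A library at 0 was set to that floor for ratios, and a group at or below it in both libraries got no ratio. The 3 pairs share libraries, so their counts are not independent of one another.

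In anagen over catagen, 15 of the 100 groups were past 2-fold higher and 50 past 2-fold lower, with a median log2 ratio of -1.02. Among 28099 groups of 18 to 36 nt with the same range of reads, 21.8% were higher, 20.9% were lower, and the median was -0.04. In anagen over telogen, 84 of the 91 groups with a ratio were higher and 2 were lower, with a median of 2.76, against a background of 13.9% higher and 25.6% lower and a median of -0.24. In catagen over telogen, 92 of 100 groups were higher and 5 were lower, with a median of 3.58, against 10.04% higher and 24.2% lower and a median of -0.27. The shares of long groups that were higher than telogen were far above those of short groups of like read number. This contrast was partly set by the choice of groups. They were ranked by reads summed over the libraries, and telogen held 1453 of the 17940 long reads, so groups high in telogen could hardly enter. The short groups were chosen by summed reads too, and there telogen was the deepest library. All of these counts of groups are on the scale of all clean reads. Scaled to the reads of 37 to 44 nt alone, anagen over catagen had 32 groups higher and 16 lower, anagen over telogen 27 higher and 12 lower, and catagen over telogen 17 higher and 19 lower.

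The 2 largest groups came from 1 stretch of sequence, since the tag of rank 2 begins 3 bases into the tag of rank 1. The largest, GGCGGCGACTCTGGACGC, had 96, 248 and 30 reads, with a log2 ratio of -1.19 in anagen over catagen (-1.54 to -0.84) and 3.62 in catagen over telogen (3.07 to 4.22). Rank 2, GGCGACTCTGGACGCGAG, had 104, 215 and 16 reads, and no other group reached 100 reads in each of 2 libraries. Its log2 ratio was -0.87 in anagen over catagen (-1.22 to -0.52). With 8 further groups these formed a family of 10 that spanned 58 bases, a family being groups whose leading tags share at least 20 bases in a row. The family held 282, 809 and 88 reads, 21.6% of the reads of the 100 groups. It also included CCGGGGGGGCCGGCGGCG of rank 7, with 2, 108 and 9 reads. Anagen was far lower than catagen in that group, at -5.58 (-8.64 to -3.69). CCCGGGGGGGCCGGCGGC of the same family, which begins 1 base before it, had 0, 56 and 11 reads. Both had at most 2 reads in anagen, where the 2 largest groups of the family had 96 and 104.

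Rank 5, CTCAGGGTCGTGGGTTCG, was seen nearly only in catagen. It had 0, 138 and 1 reads, and all 139 ended in CCA. Anagen over catagen was -5.34 with anagen at its floor, with an upper limit of -5.03, and catagen over telogen was 7.69 (5.18 to 13). Shorter tags with the same start went the other way, with 93, 70 and 2810 reads of 18 to 36 nt. Of all reads with this start, 66.4% were long in catagen and 0.0356% in telogen. The other 7 groups that lead with CCA had 1 to 28 reads in anagen, 16 to 36 in catagen and 0 to 12 in telogen. Catagen had the most reads in each of them, but not always beyond counting error. For tags 2, 4, 7 and 8, as numbered above, the interval of anagen over catagen covered equality. Their log2 ratios were -0.18, -0.01, -0.59 and -0.82. For tags 3, 5 and 6 anagen was lower beyond counting error, at -2.8, -3.5 and -4.5.

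The groups of rank 6, 8 and 9 followed the order of the totals, with catagen highest and telogen lowest. TTTGGTAAGCAGAACTGG of rank 6 had 35, 82 and 10 reads, with -1.05 in anagen over catagen (-1.66 to -0.46) and 3.61 in catagen over telogen (2.66 to 4.73). TCTGGCATGTTGGAACAA of rank 8 had 25, 85 and 9 reads, with -1.59 (-2.29 to -0.93) and 3.82 (2.82 to 4.99). ATCTGTGGGATTATGACT of rank 9 had 41, 69 and 7 reads, and its anagen over catagen ratio of -0.57 had an interval of -1.17 to 0.01, which covered equality. GATAACTGTGGTAATTCT, named because telogen was at 0, had 20, 64 and 0 reads. Catagen was 4.99 above telogen on the log2 scale with telogen at its floor, with a lower limit of 4.65.

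The 100 groups fell into 37 families, 19 of them with at least 2 groups and 82 groups in all. The family of TCTGGCATGTTGGAACAA had 12 groups over 48 bases, with 146, 296 and 29 reads. That of TTTGGTAAGCAGAACTGG had 8 groups over 44 bases, with 116, 334 and 34 reads. Of the 19 families, 13 were lower in anagen than in catagen, 11 of them with an interval clear of 0, and 6 were higher, 4 of them with an interval clear of 0. Of these 4, the families of AAGCTCGTAGTTGGATCT and TTAAAGGAATTGACGGAA, chosen after their values were seen, had tags of 37 to 40 nt in the main. The first had 148, 75 and 12 reads in 5 groups and a log2 ratio of 1.16 in anagen over catagen (0.75 to 1.58). The second had 54, 24 and 3 reads in 3 groups and a ratio of 1.35 (0.63 to 2.11). Anagen was thus above catagen in both families beyond counting error. The family of GTGGACGGTGTGAGGCCG, described below, had 79, 2 and 47 reads and a ratio of 5.48 (3.58 to 8.55).

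A set of 7 groups consisted mostly of tags of 41 to 44 nt, and they had another order of libraries than the 93 groups of mostly 37 to 40 nt. Together they had 428, 27 and 146 reads, or 26.75, 1.49 and 5.40 RPM. All 7 were past 2-fold higher in anagen than in catagen, with a median log2 ratio of 4.70. In catagen over telogen 5 of 7 were lower, with a median of -2.23. Of the 7 groups, 3 belonged to 1 family and 2 to another, so they are not independent. At 41 to 44 nt 73.1% of catagen reads had the 6-letter end described above. Only 14.5% of these had first 18 bases that began a shorter catagen tag. How often such reads shared a start with one another was not counted. Whether the choice of groups partly set this order was not tested. Of the other 93 groups, 8 were higher and 50 lower in anagen over catagen, with a median of -1.14, and 91 were higher and 0 lower in catagen over telogen. The groups of long ends were also made of many tags with few reads each, with a median of 1.26 reads per tag against 7 in the others.

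GTGGACGGTGTGAGGCCG of rank 10 had 56, 1 and 40 reads, every one of 41 to 44 nt. Of these reads 36.1% had an adapter-like end, and 78.35% when a match of 60% was also counted. Its log2 ratio in anagen over catagen was 5.99, with a wide interval of 3.45 to 11.32 since catagen had 1 read. Its most-read shorter tag had 25 bases and ended where the capitals of the tag printed above end.

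Only 1 of the 100 groups had the first 18 bases of a miRNA in the study's list of annotated tags, which was held in a shortened copy. This was let-7b, a member of the let-7 family of miRNAs, whose leading long tag is printed above. The group had 18, 5 and 18 reads in 39 distinct tags, and 34 of the 41 reads were of 41 to 44 nt. Of the 41 reads 21.95% had an adapter-like end, and 80.5% when a match of 60% was also counted. All listed miRNA starts together had 37, 29 and 27 long reads.

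The starts of the 100 groups, which were chosen by their long reads, were found in shorter tags too, and there the libraries differed much less. A median of 0.326% of the reads of a start were long, from 0.000793% to 86.7%. By library the median share was 0.467%, 0.651% and 0.0268%. For the same starts at 18 to 36 nt, the median log2 ratios were -0.19 in anagen over catagen, -0.34 in anagen over telogen and -0.16 in catagen over telogen. The direction at 18 to 36 nt was that of the long tags in 61 of 98 groups with both ratios for anagen over catagen, 28 of 90 for anagen over telogen and 33 of 99 for catagen over telogen. In anagen over telogen 7 starts, and in catagen over telogen 2, were past 2-fold higher at both lengths.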

How the data were processed

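Small RNA of skin was sequenced in 3 libraries, and the authors deposited for each the clean reads collapsed into tags, as a raw count of reads per tag with its length and sequence and no normalisation. Before that, the authors had filtered for quality, for the presence of a 3′ adapter and an insert, against 5′ adapter contaminants, against poly(A) stretches and for a length of at least 18 nt. A deposited filtering record holds the count of reads removed in each class. No alignment enters these values, and the versions of the programs that filtered and collapsed the reads were not given in the sources used here. Groups were taken from the labels.

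Tags of 37 to 44 nt were selected by length and counted with Python 3.11.15, pandas 2.3.3 and scipy 1.17.1. Shares have 95% Wilson intervals. Ratios of reads per 1000000 clean reads have exact (Clopper-Pearson) intervals, and a group was called past 2-fold at an absolute log2 ratio above 1, with libraries at 0 set to 3 reads. With 1 library per stage no test between stages was made, and a change of scale or definition was tried instead. The ratio code was tested on simulated data. Named groups are the 10 with most reads, up to 3 in each direction per pair with at least 100 reads in both libraries, and up to 3 at 0 in a library. The groups of rank 3 and 4 are not reported here. Only 9 groups had at least 100 reads, all of them among those compared, so groups of 18 to 36 nt with 21 to 374 reads served as the background, which was chosen after the counts were seen. The members and the lists of letters were chosen with earlier results of these data known.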

Additional observations from a re-analysis of the deposited data

How the results depend on the processing

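No paired analysis was possible because each stage had 1 library and the labels carry no replicate numbers. Catagen stayed highest and telogen lowest in the share held by tags of 37 to 44 nt under each alternative below, in the order anagen, catagen and telogen. It was 0.239%, 0.600% and 0.0592% over distinct tags, 0.496%, 1.44% and 0.223% of tags of 31 to 44 nt, and 0.0248%, 0.0602% and 0.00467% without the 10 largest groups. At 37 to 43 nt it was 0.0275% in anagen and 0.00479% in telogen. Chosen after seeing the data, 37 to 40 nt gave 0.0230%, 0.0584% and 0.00263%, and leaving out CTGAAC and adapter-like ends gave 0.02305%, 0.0464% and 0.00379%. G and C content was 53.95%, 50.7% and 55.3% over distinct tags and 54.8%, 52.3% and 55.32% without the 10 largest groups. CCA ended 2.43%, 2.99% and 3.48% of distinct tags and, without those groups, 3.87%, 4.37% and 5.39% of reads.

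The number of groups with a ratio changed with the setting, so each count is given out of that number. Groups past 2-fold in anagen over catagen numbered 65 of 100. They were 43 of 76 over distinct tags, 40 of 100 at 3-fold and 5 of 6 among groups of at least 100 reads in a library. In anagen over telogen they were 86 of 91, and 39 of 91 both per reads of 37 to 44 nt and with median-of-ratios scaling. Over distinct tags they were 25 of 34, and among groups of at least 100 reads 3 of 3. In catagen over telogen they were 97 of 100, and 36 and 35 of 100 with these scalings. Over distinct tags they were 64 of 69, and among groups of at least 100 reads 4 of 4. The other alternatives kept these totals within 1.5 times, but not always their direction. Anagen over catagen had 15 groups higher and 50 lower, but 32 and 16 per reads of 37 to 44 nt. With median-of-ratios scaling it had 23 higher and 27 lower. That scaling gave 17 higher and 22 lower in anagen over telogen, against 84 and 2. In catagen over telogen it gave 18 higher and 17 lower, against 92 and 5. A further limit of p under 0.01 in the exact Audic-Claverie test, which compares the libraries and not the stages, left totals of 44, 71 and 92.

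The sign of a named group turned most often when its tags of 18 to 36 nt were taken instead. In anagen over catagen this gave 0.59 for CTCAGGGTCGTGGGTTCG and 0.10 for TCTGGCATGTTGGAACAA. In anagen over telogen it gave -0.74 for GGCGGCGACTCTGGACGC, -0.54 for GGCGACTCTGGACGCGAG, -0.49 for TTTGGTAAGCAGAACTGG, -0.77 for ATCTGTGGGATTATGACT, -0.66 for GTGGACGGTGTGAGGCCG and -0.063 for GATAACTGTGGTAATTCT. In catagen over telogen it gave -0.31, -0.12 and -0.29 for GGCGGCGACTCTGGACGC, GGCGACTCTGGACGCGAG and TTTGGTAAGCAGAACTGG, -4.75 for CTCAGGGTCGTGGGTTCG, -0.69 for CCGGGGGGGCCGGCGGCG, -0.0076 for ATCTGTGGGATTATGACT and -1.15 for CCCGGGGGGGCCGGCGGC. Per reads of 37 to 44 nt, TTTGGTAAGCAGAACTGG, GGCGACTCTGGACGCGAG and ATCTGTGGGATTATGACT turned to 0.13, 0.31 and 0.61 in anagen over catagen, TCTGGCATGTTGGAACAA and GTGGACGGTGTGAGGCCG to -0.20 and -1.18 in anagen over telogen, and CCCGGGGGGGCCGGCGGC to -0.68 in catagen over telogen. With median-of-ratios scaling, anagen over catagen turned to 0.04 for ATCTGTGGGATTATGACT, anagen over telogen turned to -0.47 for GGCGGCGACTCTGGACGC, -0.35 for TTTGGTAAGCAGAACTGG, -0.68 for TCTGGCATGTTGGAACAA and -1.67 for GTGGACGGTGTGAGGCCG, and catagen over telogen to -0.60 for CCCGGGGGGGCCGGCGGC. The cause was not tested. Scaling to reads of 18 to 30 nt turned none of the 29 ratios.

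The telogen values rest on the fewest reads, 457 in the 100 groups, although that library was the deepest. Libraries were not replicated, so a difference between stages cannot be told from one between pools or preparations.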
